A study of Mus musculus with 4 samples.

Results

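Polycomb genes were examined in early T lineage progenitors (ETP) sorted from mouse thymus, cells at the start of T cell development. The 10 genes were *Ezh1*, *Ezh2*, *Eed*, *Suz12* and *Jarid2* of Polycomb repressive complex 2 (PRC2) and *Bmi1*, *Rnf2*, *Ring1*, *Cbx7* and *Cbx8* of Polycomb repressive complex 1 (PRC1). They were taken by symbol as core genes of these complexes, and all 10 were present among the 23361 genes of the expression table. Whole transcriptome sequencing covered 4 libraries, 2 from old mice (72 weeks) and 2 from young adult mice (4 to 6 weeks). All mice were females of strain C57BL6 with no genetic alteration or treatment stated, and the sort for ETP kept thymocytes that were lineage negative, CD44 and CD117 positive and CD25 negative. Per the study's methods the old mice came from another colony than the young adults, so colony and age cannot be told apart. The table calls the old condition 20m and numbers the libraries within an age, and these numbers serve here only as names (replicates 1 and 2). Whether 2 libraries of one age stem from different mice or from a pool is not stated, and p-values here therefore cover library-to-library spread that may be technical. Old replicates 1 and 2 held 11816478 and 4839341 fragments, and young replicates 1 and 2 held 16658864 and 6414915.

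Polycomb complexes keep genes silent through marks on histones. PRC2 adds methyl groups to lysine 27 of histone H3: EZH2 or its paralog EZH1 is the enzyme, EED and SUZ12 are the core subunits without which it does not work, and JARID2 helps to guide it to chromatin and tunes its activity. Canonical PRC1 contains a CBX protein (CBX7 or CBX8, for example) that binds the PRC2 mark, a RING protein (RNF2, also called RING1B, or RING1) that attaches ubiquitin to histone H2A, and a PCGF protein such as BMI1. BMI1 is known for sustaining self-renewal of hematopoietic stem cells by silencing the cell cycle inhibitor locus *Cdkn2a*, and EZH2 is abundant in dividing lymphoid progenitors whereas EZH1 persists in resting cells.

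The promoters of *Ezh2*, *Suz12* and *Ezh1* are shown because *Ezh2* and *Suz12* hold a motif of E2F, a factor family of genes for DNA replication, and *Ezh1* is the paralog without it. Each window runs from 250 bases before to 50 bases after the RefSeq start (GRCm38.p6), and capitals mark a match to an E2F-type motif, searched on both strands as TTTGGCGC, TTTCCCGC, TTTGCCGC or TTTCGCGC. The windows lie at chr6:47594981-47595280 on the minus strand for *Ezh2*, at chr11:101226414-101226713 on the minus strand for *Ezh1* and at chr11:79992856-79993155 on the plus strand for *Suz12*.
Ezh2: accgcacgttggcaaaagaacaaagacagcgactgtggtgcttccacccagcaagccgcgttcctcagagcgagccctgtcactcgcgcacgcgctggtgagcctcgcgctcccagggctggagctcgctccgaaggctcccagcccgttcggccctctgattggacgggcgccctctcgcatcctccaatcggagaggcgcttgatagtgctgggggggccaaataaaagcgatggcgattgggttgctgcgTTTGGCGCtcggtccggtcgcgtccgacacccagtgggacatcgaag
Ezh1: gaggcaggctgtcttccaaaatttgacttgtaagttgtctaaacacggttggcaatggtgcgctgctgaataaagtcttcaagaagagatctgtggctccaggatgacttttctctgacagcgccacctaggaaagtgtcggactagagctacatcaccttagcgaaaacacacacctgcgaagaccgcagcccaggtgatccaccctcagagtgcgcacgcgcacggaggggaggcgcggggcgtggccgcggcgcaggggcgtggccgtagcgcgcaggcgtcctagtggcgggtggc
Suz12: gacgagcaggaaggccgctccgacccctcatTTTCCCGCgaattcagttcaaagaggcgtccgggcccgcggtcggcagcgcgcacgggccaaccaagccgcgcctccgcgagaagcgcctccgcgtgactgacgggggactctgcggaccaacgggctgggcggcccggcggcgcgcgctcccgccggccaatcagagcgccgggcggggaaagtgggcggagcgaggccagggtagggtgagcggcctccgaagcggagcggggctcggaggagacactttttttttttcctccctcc
The match began 3 bases after the start in *Ezh2* and 219 bases before it in *Suz12*, and the *Ezh1* window held none. Of the 11 windows of the 10 genes (*Jarid2* has 2), 2 held a match, which are those of *Ezh2* and *Suz12*. The share was 2.26% of all 32851 promoters and 4.31% of the 9699 promoters of tested genes. A match of letters is a description and not a binding site.

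Levels are given as normalized CPM (estimated fragment counts scaled by library total and TMM factor), which compare libraries for a gene. The ages were compared with edgeR's quasi-likelihood test over the 10080 genes that reached 1 FPKM (a value scaled by depth and gene length) in 2 or more libraries. Between libraries the FPKM did not follow normalized CPM. *Ezh2*, for example, was at 229 and 228 CPM but 44.8 and 26.8 FPKM in young replicates 1 and 2. Libraries with more fragments had larger FPKM sums, so the filter of 1 FPKM was not the same CPM in each library. All 10 Polycomb genes passed this filter, *Cbx8* through its young libraries alone. Of the 10, 7 had a lower and 3 a higher estimate in old than in young ETP, and the median of their log2 fold changes was -0.29. Of all tested genes, 53.4% had a lower and 46.6% a higher estimate, with a median of -0.033. None of the 10 passed an adjusted p under 0.05 in edgeR, where the background was 0.0% of tested genes, 0 of the 10 had an unadjusted p under 0.05 (background 0.913% lower and 4.65% higher in old ETP), and DESeq2 called 0 of them (background 0.149% lower and 2.08% higher). In 4 genes, *Ezh2*, *Eed*, *Rnf2* and *Bmi1*, both old libraries lay below both young libraries, a pattern that 15.5% of tested genes had. In *Jarid2* and *Cbx7* both old libraries lay above both young libraries, as in 16.1% of tested genes, and in the other 4 the ages overlapped. The count of lower estimates was 4 without young replicate 2, where *Ezh1* and *Suz12* took the other sign and *Cbx8* missed the filter, and 6 or 7 without another library. The median of the 10 genes was -0.067 without old replicate 1 and 0.053 without young replicate 2.

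**Figure D1:**
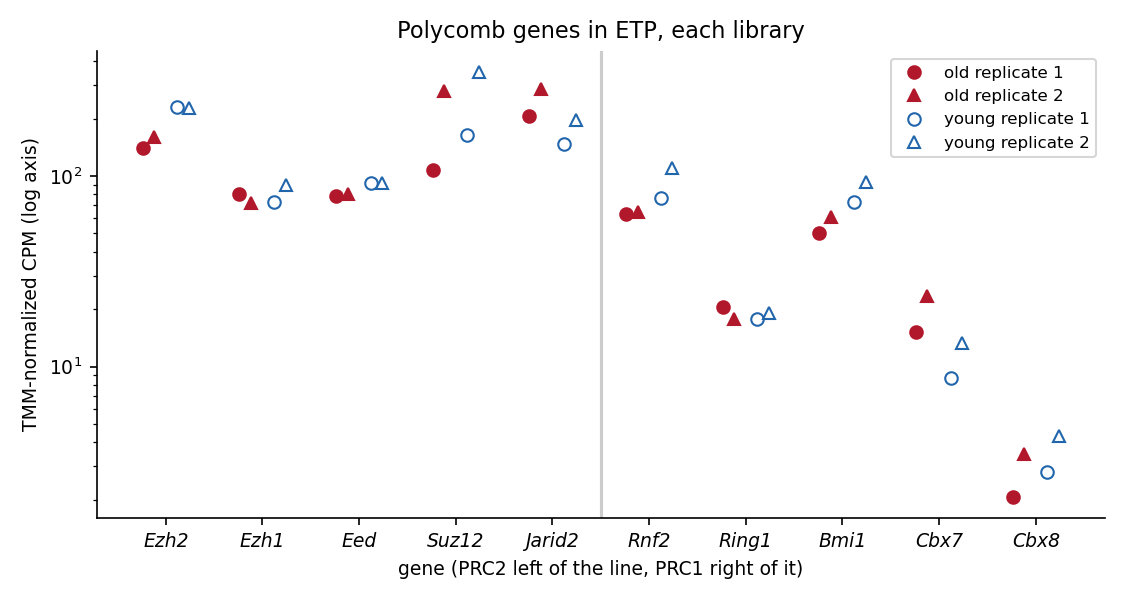
Normalized CPM (log axis) of the 10 Polycomb genes in each library, old ETP filled and young ETP open, circles for replicate 1 and triangles for replicate 2. The ages are apart for *Ezh2*, at 140 and 161 in old and 229 and 228 in young ETP, and for *Suz12* the spread within each age is wider than the difference between the ages.

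Among the enzymes of PRC2, *Ezh2* stood lower in old ETP while *Ezh1* overlapped. *Ezh2*, on chromosome 6 from 47530139 to 47595341 of GRCm38, was at 140 and 161 normalized CPM in old replicates 1 and 2, against 229 and 228 in young replicates 1 and 2. Both old libraries were below the nearly equal young ones, and the mean was 150 ± 15.0 in old and 228 ± 0.530 in young ETP (SD, n = 2 each). The log2 fold change was -0.60 (standard error 0.25, adjusted p = 0.954 from edgeR), and it ran from -0.70 to -0.46 with a library left out. *Ezh1*, on chromosome 11 from 101191115 to 101226463, was at 79.98 and 71.9 normalized CPM in old and 73.1 and 89.7 in young ETP. Its ages overlapped, with a log2 fold change of -0.099 (standard error 0.26) whose sign turned to 0.053 without young replicate 2.

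The balance between the PRC2 enzymes was read within each library as a ratio of FPKM, which are per length and whose ratio does not depend on the scaling of a library. *Ezh2* was the more abundant transcript in every library, at 2.86 and 3.65 times the *Ezh1* level in old and 5.13 and 4.14 times in young ETP. Both old ratios were below both young ratios. The log2 ratio of *Ezh1* to *Ezh2* was -1.69 ± 0.25 in old and -2.21 ± 0.22 in young ETP (SD, n = 2 each), a difference of 0.51. An exact two-sided permutation test gave p = 0.333, which is the smallest value that 2 libraries against 2 allow, so this test cannot pass 0.05 for any measure here. The difference ran from 0.34 to 0.69 with a library left out.

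The core subunit gene *Eed* was even between libraries of an age and *Suz12* was not. *Eed*, whose product binds the mark and stimulates the enzyme (chromosome 7 from 89954654 to 89980983), was at 78.6 and 80.2 normalized CPM in old and 91.5 and 91.6 in young ETP. Libraries of an age were nearly equal and the ages did not overlap, with a log2 fold change of -0.21 (standard error 0.24, adjusted p = 0.999 from edgeR). *Suz12* (chromosome 11 from 79993106 to 80034123) was at 108 and 278 normalized CPM in old and 164 and 351 in young ETP. In both ages replicate 2, the library with fewer fragments, held far more CPM than replicate 1, and the old and young values interleaved. The log2 fold change of *Suz12* was -0.42 (standard error 0.57), and with a library left out it ran from -1.25 without old replicate 2 to 0.23 without young replicate 2.

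*Jarid2* was the PRC2 gene with a higher estimate in old ETP. This gene, which spans chromosome 13 from 44729474 to 44921643, was at 205 and 284 normalized CPM in old and 147 and 197 in young ETP. Old replicate 1 was only just above young replicate 2. The old mean was 1.43 times the young one, with a log2 fold change of 0.51 (standard error 0.31, adjusted p = 0.999 from edgeR) that ran from 0.27 to 0.78 with a library left out.

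**Figure D2:**
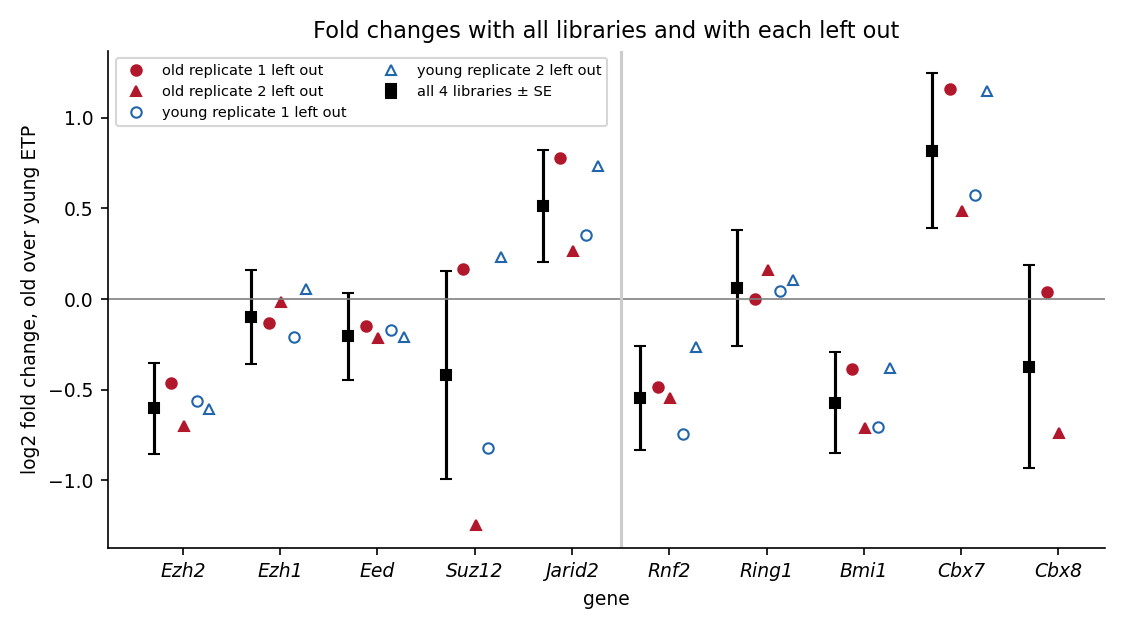
Log2 fold change of old over young ETP for the 10 Polycomb genes with all 4 libraries (squares, error bars are standard errors) and with each library left out in turn. *Ezh2*, *Eed*, *Rnf2* and *Bmi1* stay below 0 and *Jarid2* and *Cbx7* above 0 in all of these fits, while *Suz12* runs from -1.25 to 0.23, and *Cbx8* has no value without either young library because it then misses the filter.

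In PRC1, the E3 ligase gene *Rnf2* was lower in both old libraries, and its paralog *Ring1* overlapped between the ages. *Rnf2* (chromosome 1 from 151458004 to 151500955) was at 63.4 and 64.5 normalized CPM in old and 76.8 and 109.9 in young ETP. The old libraries were close together and below both young ones, and much of the difference came with young replicate 2, as the log2 fold change of -0.54 (standard error 0.29) was -0.27 without it. *Ring1* (chromosome 17 from 34020792 to 34024680) was at 20.5 and 17.9 normalized CPM in old and 17.8 and 19.1 in young ETP. Its ages overlapped, and its log2 fold change of 0.061 (standard error 0.32) took the other sign on the FPKM scales. In FPKM, *Ring1* made up 33.4% and 29.9% of the pair in old and 26.5% and 21.1% in young ETP, so that *Rnf2* was the main RING transcript in each library.

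*Bmi1*, the PCGF gene known from stem cell self-renewal, had a lower estimate in old ETP. It lies on chromosome 2 from 18677018 to 18686629 and was at 50.3 and 61.2 normalized CPM in old and 72.6 and 93.1 in young ETP. Both old libraries were below both young ones, and the mean was 55.8 ± 7.72 in old and 82.8 ± 14.5 in young ETP (SD, n = 2 each). The log2 fold change was -0.57 (standard error 0.28, adjusted p = 0.999 from edgeR), and -0.71 to -0.38 with a library left out. Of the summed FPKM of the 6 PCGF genes *Pcgf1*, *Pcgf2*, *Bmi1*, *Pcgf3*, *Pcgf5* and *Pcgf6*, *Bmi1* took 15.2% and 18.6% in old and 19.5% and 21.9% in young ETP. The mean share differed by -3.76 percentage points between old and young ETP (exact two-sided permutation p = 0.333), and it ran from -5.47 without old replicate 2 to -2.05 without old replicate 1. *Pcgf5*, a PCGF gene of variant PRC1, had the largest FPKM share in both old libraries and in young replicate 1 (27.1% and 22.3% in old and 25.2% in young ETP), and *Pcgf6* in young replicate 2 (22.3%). This order rests on the length scaling of the FPKM. In fragments *Bmi1* exceeded *Pcgf5* in each library, at 605 and 281 against 409 and 130 in old and 1240 and 581 against 606 and 216 in young ETP.

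The CBX genes of the set had estimates of opposite sign. *Cbx7*, which encodes the mark reader that prevails in stem cells (chromosome 15 from 79915807 to 79971119), was at 15.1 and 23.5 normalized CPM in old and 8.66 and 13.3 in young ETP. Old replicate 1 was just above young replicate 2, and the old mean was 1.76 times the young one. *Cbx7* had a log2 fold change of 0.82 (standard error 0.43, adjusted p = 0.999 from edgeR), the largest of the 10 genes in size, and 0.48 to 1.16 with a library left out. Its counts were modest, with 182 and 108 fragments in old and 148 and 83 in young ETP. *Cbx8* (chromosome 11 from 119036305 to 119040969) had the lowest counts of the 10 genes, with 25 and 16 fragments in old and 48 and 27 in young ETP, or 2.08 and 3.49 normalized CPM in old and 2.81 and 4.32 in young ETP. The ages overlapped, with a log2 fold change of -0.37 (standard error 0.56), and the sign turned to 0.041 without old replicate 1. *Cbx8* reached 1 FPKM in the young libraries alone, so its sign is not independent of the filter. FPKM and CPM did not order the libraries alike. Old replicate 2 was at 3.49 normalized CPM and 0.704 FPKM, and young replicate 1 at 2.81 normalized CPM and 1.15 FPKM. Passing the filter in young ETP alone is therefore no measure of a difference in level between the ages.

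**Figure D3:**
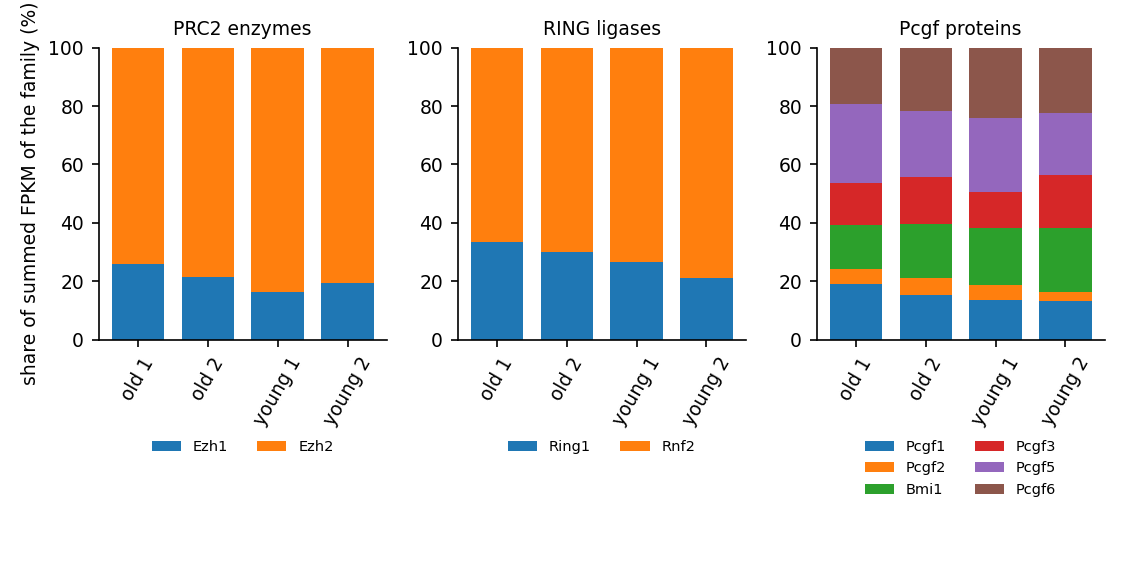
Share of each paralog in the summed FPKM of its family (PRC2 enzymes, RING ligases and PCGF proteins, %), one bar per library with old ETP at the left. The *Ezh1* part is 25.9% and 21.5% in old and 16.3% and 19.4% in young ETP, and the *Bmi1* part is smaller in both old than in both young libraries.

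Compared per length within a library, the order of the 10 genes was the same in each library at the low end and varied above it. *Ezh2* had the highest FPKM in old replicate 1 (21.9), young replicate 1 (44.8) and young replicate 2 (26.8), and *Suz12* in old replicate 2 (16.1, against 15.8 for *Ezh2*). *Ring1*, *Cbx7* and *Cbx8* held the last 3 places in each library, with *Cbx8* at 0.678 and 0.704 FPKM in old and 1.15 and 1.05 in young ETP. The level of *Jarid2* was above that of *Rnf2* in both old libraries and below it in both young libraries, at 13.7 and 11.9 FPKM against 8.59 and 5.50 in old ETP, and 12.4 and 9.91 against 13.02 and 11.2 in young ETP. The neighbours *Ezh1* and *Bmi1* did not keep 1 order, since *Ezh1* was the higher in old replicate 1 (7.64 against 5.66 FPKM), nearly equal in old replicate 2 (4.34 against 4.35) and the lower in both young libraries (8.74 against 10.2, and 6.46 against 7.89).

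The wider set of Polycomb genes gave no call in the fit with age as the only term, and neither did any other tested gene. Of 8 other PRC2 subunits 6 were tested (*Epop* under an older symbol), 5 with lower and 1 with higher estimates in old ETP (median -0.14 on the log2 scale, against -0.033 over all tested genes). The histone binding subunit gene *Rbbp7* had the highest level, at 399 and 317 normalized CPM in old and 496 and 344 in young ETP. *Mtf2*, a Polycomb-like protein that recruits PRC2 to CpG islands, was at 185 and 207 normalized CPM in old and 264 and 367 in young ETP. Its log2 fold change was -0.69 (standard error 0.29, adjusted p = 0.962 from edgeR). Another Polycomb-like gene, *Phf1*, was at 7.73 and 10.2 normalized CPM in old and 3.10 and 4.97 in young ETP. Its log2 fold change was 1.17 (standard error 0.48, adjusted p = 0.921 from edgeR). In both *Mtf2* and *Phf1* the ages did not overlap. *Phf1* passed the filter through its old libraries alone, and 39.3% of its exonic bases are shared with genes on the other strand (6.93% for *Mtf2*), so its value is uncertain.

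Of 24 other PRC1 subunits 21 were tested, 10 with higher and 11 with lower estimates in old ETP (median -0.049). Those with the smallest p were *Fbrs*, an auxiliary gene of variant PRC1 at 193 and 135 normalized CPM in old and 112 and 101 in young ETP, and *Pcgf6* at 35.2 and 40.1 in old and 49.7 and 53.0 in young ETP. Neither gene overlapped between the ages, and the adjusted p from edgeR was 0.999 for each. The corepressor gene *Bcor* and the scaffold gene *Dcaf7*, which had the highest levels of this list, differed little, with log2 fold changes of -0.049 and 0.040. Of 9 enzymes and cofactors that remove Polycomb marks 8 were tested, 2 with higher and 6 with lower estimates (median -0.062), and all 8 overlapped between the ages (background 6890 of 10080 tested genes). Among these the H3K27 demethylase gene *Kdm6b* was at 259 and 77.6 normalized CPM in old and 120 and 78.6 in young ETP, with old replicate 1 apart from the other 3 libraries, and *Kdm6a*, a demethylase gene on the X chromosome, was at 173 and 288 in old and 183 and 320 in young ETP. Over these 3 lists, edgeR with age as the only term called 0 genes at an adjusted p under 0.05 (background 0.0%). DESeq2 called 0 (background 0.149% lower and 2.08% higher in old ETP). By edgeR none had an unadjusted p under 0.05 (background 0.913% lower and 4.65% higher). With backgrounds this small, the absence of calls is no result about these lists.

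**Figure D4:**
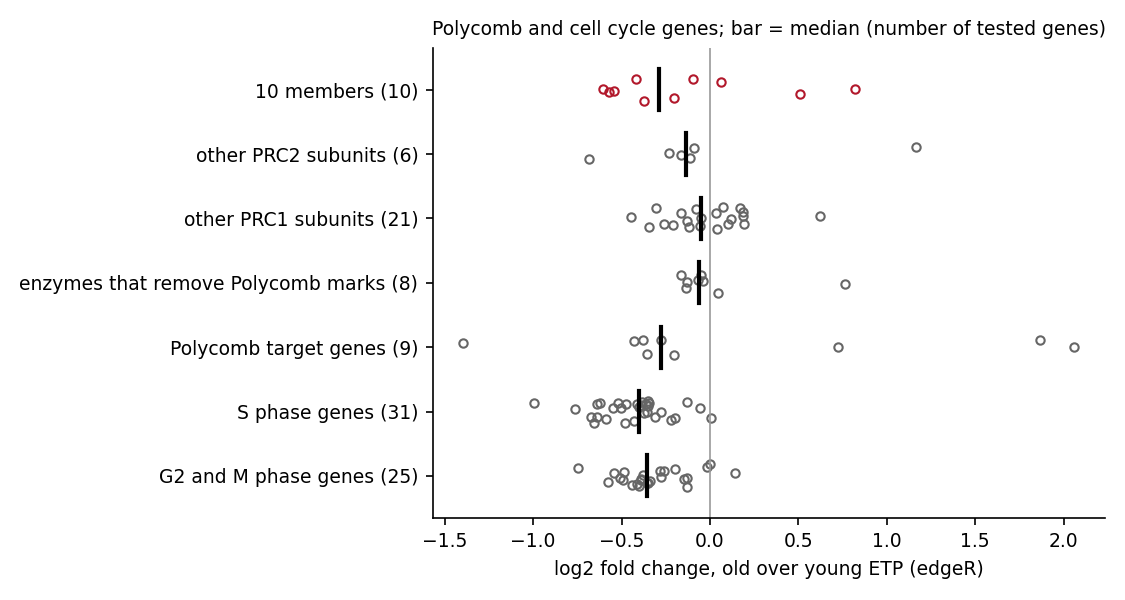
Log2 fold change of old over young ETP for tested genes of the Polycomb and cell cycle lists, each point a gene and each bar the median of its list. The medians are -0.29 for the 10 Polycomb genes, -0.40 for S phase genes and -0.36 for the mitotic (G2 and M phase) genes, and those of the other PRC1 subunits and of the enzymes that remove Polycomb marks lie close to 0.

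Known target genes of the complexes were mostly at or near 0 in both ages. Of 40 listed targets, 12 had 0 fragments in all 4 libraries and 9 were tested. The cell cycle inhibitor genes *Cdkn2a* and *Cdkn2b*, classic targets of BMI1 and CBX7, were among those with 0 fragments, which allows up to 0.249 and 0.654 normalized CPM in old and 0.176 and 0.481 in young ETP by counting error (3 fragments per library). Genes of the *Hoxa* cluster were detected at low levels. *Hoxa9*, a progenitor regulator, was at 11.0 and 11.1 normalized CPM in old and 15.0 and 13.1 in young ETP, and *Hoxa6* was at 1.16 and 0.654 in old and 2.93 and 2.08 in young ETP, so both stood lower in each old library. *Hoxa6* rests on 14 and 3 fragments in old and 50 and 13 in young ETP and passed the filter through its young libraries alone. Of the 9 tested targets 6 had lower and 3 higher estimates in old ETP (median -0.28). The filter was passed in 1 age only by 3 of the 9, *Cdkn2c* in old and *Hoxa3* and *Hoxa6* in young ETP. The signs of these 3, and so the counts and the median, are not independent of the filter. By edgeR 0 targets passed an adjusted p under 0.05. Without adjustment 2 were under 0.05, *Cdkn2c* among them, both higher in old ETP (background 4.65%), whereas 1 was called by DESeq2 (background 2.08%).

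The 2 targets with an unadjusted p under 0.05 were higher in old ETP. *Cdh1*, which encodes E-cadherin, was at 25.3 and 61.0 normalized CPM in old and 10.6 and 12.97 in young ETP. Its log2 fold change was 1.87 (standard error 0.50, adjusted p = 0.509 from edgeR and 0.0329 from DESeq2). The inhibitor gene *Cdkn2c* was at 5.07 and 11.3 normalized CPM in old and 1.29 and 2.72 in young ETP. Its log2 fold change was 2.06 (standard error 0.67, adjusted p = 0.710 from edgeR). For *Cdh1* the estimate with 1 library omitted ran from 1.11 without old replicate 2 to 2.42 without old replicate 1, where edgeR gave an adjusted p of 0.0280. The adjusted p of *Cdh1* over all alternatives ran from 0.00169 (edgeR with no filter) to 0.999 (limma on log2(TPM + 1)). *Cdkn2c* passed the filter through its old libraries alone, so its sign is not independent of the filter and it was not tested without either old library. Its value was 1.60 without young replicate 1 and 2.64 without young replicate 2. *Cdkn1a*, which encodes the inhibitor p21, overlapped between the ages, at 122 and 13.7 normalized CPM in old and 78.6 and 3.52 in young ETP, with replicate 1 far above replicate 2 in both.

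Cell cycle genes were measured beside the Polycomb genes, since *Ezh2* is known to be a target of E2F factors in dividing cells. Of 31 S phase genes 30 had lower estimates in old ETP (background 53.4%), and 11 of them did not overlap between the ages (background 15.5%). Estimates were also lower for 23 of 25 mitotic genes, but only 3 lay lower without overlap between the ages (background 15.5%). The summed level of the mitotic genes was 1838 and 2700 normalized CPM in old and 3638 and 2474 in young ETP, so the ages overlapped. Neither list had a call by edgeR or DESeq2. By edgeR, 2 S phase genes and 0 mitotic genes had an unadjusted p under 0.05 and were lower in old ETP (background 0.913%). Relative to the median S phase gene of the same library, the log2 level of *Ezh2* was 1.28 in old and 1.45 in young ETP, a difference of -0.17, against -0.60 for *Ezh2* on its own. On the same relative scale the differences were -0.031 for *Suz12*, -0.13 for *Bmi1* and -0.084 for *Rnf2*, and they were 0.95 for *Jarid2* and 1.25 for *Cbx7*, 0.34 for *Ezh1*, 0.23 for *Eed*, 0.49 for *Ring1* and 0.066 for *Cbx8*. The scale adds about the same amount to each of the 10 genes, so it orders them as before and its signs are no separate result. This scale was chosen after the values were seen, and the part of cell division in the Polycomb values was not tested.

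By closeness of the log2 CPM profile over the 4 libraries (Euclidean distance after centring each gene on its mean), the tested genes most like *Ezh2* were *Ckap5* (distance 0.036), a microtubule regulator, *Zfp94* (0.038) and *Brip1* (0.045), a DNA repair helicase. Those most like *Ezh1* were *Man2a2* (0.025), *Rreb1* (0.030) and *Mtfmt* (0.031). *Brip1*, for example, was at 29.8 and 35.7 normalized CPM in old and 50.6 and 50.6 in young ETP. With 4 libraries and 10080 genes such neighbours are a description.

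The sorted cells held transcripts of other lineages in unequal amounts. Of 15 tested conventional dendritic cell markers 14 were estimated higher in old ETP (background 46.6%), with 12 called by DESeq2 (background 2.08%), 0 by edgeR and 12 at an unadjusted p under 0.05 (background 4.65%), and the summed level of the list was 6384 and 20691 normalized CPM in old and 944 and 1480 in young ETP, with no marker at 0 in all libraries. Of 9 tested markers of NK and innate lymphoid cells 8 had higher estimates, with sums of 283 and 723 in old and 111 and 204 in young ETP. DESeq2 called 5 of the 9 higher (background 2.08%), edgeR called 0, and 6 lay higher without overlap between the ages (background 16.1%). The signs were mixed for mature T cell markers (3 higher of 5 tested), B cell markers (1 of 2), monocyte and granulocyte markers (3 of 8) and plasmacytoid dendritic cell markers (3 of 6). In each of these lists but the B cell list, DESeq2 called 1 gene higher (background 2.08%) and 0 lower in old ETP, and edgeR called 0. Among the 5 mature T cell markers, 3 lay higher (background 16.1%) and 1 lower (background 15.5%) without overlap between the ages. By edgeR, 2 of the 5 had an unadjusted p under 0.05 and were higher (background 4.65%), and 0 were lower (background 0.913%). Of thymic epithelial markers 1 was tested, and *Foxn1* and *Krt14* were at 0. Markers of all these lists could pass the filter through the libraries of 1 age alone. How many did so was not counted, so the counts of their signs are not independent of the filter. Genes of the sorting gate were present in each library, with a median log2 fold change of 0.019 over 6 genes. The markers at 0 in all libraries outside the thymic epithelial list were *Klk1* of the plasmacytoid dendritic cell list and *Ptcra*, which stood in the T cell list although it encodes the pre-TCR alpha chain of immature thymocytes. The part of these cells in the values of the Polycomb genes was not tested, and in bulk RNA fewer cells of a type and less RNA per cell cannot be told apart.

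Some of the 10 genes share exonic positions with a gene on the other strand in the GENCODE annotation, and use of strand in the counting is not stated. The shared part was 3.83% of the exonic bases of *Rnf2* (with *Trmt1l*), 1.54% of *Cbx7* (with *Apobec3*), 6.82% of *Eed*, 3.60% of *Suz12* and 2.61% of *Ezh2*. *Apobec3* was at 346 and 405 normalized CPM in old and 275 and 370 in young ETP, well above *Cbx7*. How reads in shared bases were divided was not tested.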

How the data were processed

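RNA of sorted ETP (2 old and 2 young libraries) was sequenced from both fragment ends. Alignment by the authors used STAR 2.3.0 and the GRCm38 assembly. Tools named in the submitters' notes are Cufflinks 2.1.1, HTSeq 0.5.4p3, DESeq 1.12.1 and Cuffdiff. The authors' deposited table gives estimated counts of fragments per gene and library, of which 95.7% to 96.1% were whole within 1e-06, the authors' FPKM (scaled by depth and length, summing to 230420 and 122998 in old and 281542 and 135313 in young replicates 1 and 2), and a scaled count that was not used. Treatment of strand and of reads with several alignments: not given in the sources used here.

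Estimated counts were rounded, scaled by TMM and tested with edgeR 4.0.16 in R 4.3.3 (age as the only term, Benjamini-Hochberg over 10080 genes, threshold 0.05). A count of 0 allows 3 fragments, and such limits cover counting error only. Chi-square per degree of freedom was 68.4 between the old and 57.5 between the young libraries, so neither pair was 1 library deposited again. The fit was tested on simulated counts with 1 dispersion for all genes, no replicate effect and larger effects than those of the 10 genes. That setting is simpler than these libraries, so it does not show how the fit performs on them. Alternatives were DESeq2 1.42.0, limma 3.58.1 on log2(FPKM + 1), log2(FPKM + 0.1) and log2(TPM + 1), other scalings and filters, a replicate block, and omission of each library in turn (the spread of the age with 1 library left is taken from the other). The 10 genes and all lists were chosen with earlier results of these data known. Named genes were the 10, from each other Polycomb list the 2 per direction with the smallest p and the 2 with the highest level (of these, *Scmh1*, *Bap1* and *Asxl2* are given only where their sign turned, and *Cbx2* and *Usp3* had no such turn), detected *Hoxa* genes, *Cdkn2a* and *Cdkn2b*, and the 3 profiles nearest to *Ezh1* and to *Ezh2*. A planned share of *Cbx7* among its paralogs is not reported here. Overlapping genes were named after their values were seen. *Epop*, *Ezhip* and *Adgre1* were found under older symbols (RefSeq), and RefSeq supplied the promoters (GRCm38.p6).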

Additional observations from a re-analysis of the deposited data

How the results depend on the processing

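Of the 10 Polycomb genes, *Ezh2*, *Eed*, *Rnf2*, *Bmi1*, *Jarid2* and *Cbx7* kept their direction under all 13 alternatives. The sign turned for *Ring1* on log2(FPKM + 1), log2(FPKM + 0.1) and log2(TPM + 1) (-0.18, -0.23 and -0.023). With each library left out in turn, log2 fold changes ran from -0.21 to 0.053 for *Ezh1*, -1.25 to 0.23 for *Suz12*, -0.0021 to 0.16 for *Ring1* and -0.74 to 0.041 for *Cbx8*, which was tested only without an old library. On the FPKM scale the median of all genes was -0.27 with a pseudocount of 1 and -0.33 with 0.1, and on log2(TPM + 1) -0.12, so values there are read against these medians.

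On log2(FPKM + 1) the sign also turned for *Scmh1* (-0.097), *Dcaf7* (-0.24) and *Bap1* (-0.24), on log2(FPKM + 0.1) for *Scmh1* (-0.11), *Dcaf7* (-0.25) and *Bap1* (-0.27), and on log2(TPM + 1) for *Dcaf7* (-0.037) and *Bap1* (-0.056). With a library left out the ranges that crossed 0 were -0.47 to 0.090 for *Rbbp7*, -0.13 to 0.24 for *Dcaf7*, -0.29 to 0.20 for *Bcor*, -0.32 to 1.39 for *Kdm6b*, -0.48 to 0.52 for *Bap1*, -0.73 to 0.35 for *Asxl2*, -0.53 to 0.33 for *Kdm6a* and -1.58 to 4.29 for *Cdkn1a*.

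Medians on log2(FPKM + 0.1) were -0.55 for the 10 genes, -0.50 for other PRC2 subunits, -0.34 for other PRC1 subunits, -0.36 for the enzymes that remove Polycomb marks and -0.58 for the targets. On log2(FPKM + 1) they were -0.41 for other PRC2 subunits, -0.25 for other PRC1 subunits and -0.32 for the enzymes, and on log2(TPM + 1) -0.29 for other PRC2 and -0.13 for other PRC1 subunits. With a library left out the medians ran from -0.38 to 0.053 for the 10 genes, from -0.26 to -0.068 for other PRC2 subunits, from -0.049 to 0.036 for other PRC1 subunits, from -0.19 to 0.19 for the enzymes and from -0.72 to -0.12 for the targets. The count of Polycomb genes with lower estimates was 4 to 7 with a library left out and 8 on each FPKM and TPM scale.

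Over all genes, edgeR called 0 with age as the only term. DESeq2 called 210 higher and 15 lower in old ETP, edgeR with no filter 474 and 34, and with a library left out 15 to 133 higher and 0 to 9 lower. Libraries of equal number deviated together from the means of their ages (correlation 0.73 over 10080 genes, a single value because the deviations of 2 libraries mirror each other), but the labels do not say that a number marks a shared animal, batch or day. Replicate 1 held more fragments than replicate 2 in old (11816478 against 4839341) and in young ETP (16658864 against 6414915). Replicate number and depth therefore cannot be told apart, and the part of depth was not tested. With the replicate number as a block edgeR called 578 genes higher and 199 lower (5.73% and 1.97% of tested genes). Among the 10 genes it called *Ezh2* (log2 fold change -0.61, adjusted p = 0.0358, against 0.806 or more in the other alternatives). Of the genes named from the other Polycomb lists, the only ones followed here, it called *Mtf2*, *Cdh1*, *Cdkn2c* and *Cdkn1a*. The differences in the *Ezh1* to *Ezh2* ratio and in the *Bmi1* share kept their direction under all alternatives run. Of the 10 genes *Cbx8* had the fewest fragments, 16 to 48 per library. The cause of these changes was not tested.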
